A study of Mus musculus with 2 samples.

Results

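The genes described here are the guidance genes of mouse, read in cells of injured hind limb muscle. They were chosen by a rule on names, with earlier results of these data known. The rule took every feature called Sema, Slit, Robo or Ntn with a digit, Plxn, Epha, Ephb, Efna or Efnb with a digit, or Unc5 with a letter from a to d, together with *Nrp1*, *Nrp2* and *Dcc*. The rule took 73 of the 32287 features. These were 20 semaphorins, 12 features named for plexins, 2 neuropilins, 8 ephrins, 14 Eph receptors, 3 Slits, 4 Robo receptors, 4 netrins and 6 named for netrin receptors. The prefix also drew in 3 antisense RNAs of *Plxna4* and *Unc5cl*, which shares a name with the Unc5 receptors.

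The samples were 2 scRNA-Seq libraries of muscle taken 7 days after crush of the peroneal nerve (7 dpi) in both legs of male mice. The mice were aged 10 to 16 weeks, and the labels give their strain as C57BL/6J. In 1 library the tibialis anterior (TA) muscle had received control goat antibody to mouse IgG, and in the other a neutralizing antibody against osteopontin (SPP1-nAb), each as 2 μg in 10 μL at injury and every 2 days thereafter. All mice of both groups were injured, and the study describes pooled mice whose number is not given. For the antibody experiments its methods name the reporter strain S100GFP-tg, in which the *S100b* promoter drives GFP. They name C57BL/6J for the sciatic crush, so that labels and methods differ in the strain given. The labels name the TA and gastrocnemius (GTN) muscles, and both libraries carry S100GFP-pos in their names although the protocol sorted GFP-positive and GFP-negative live cells.

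Guidance genes encode ligands and receptors that were first described as steering growing axons and that also act on vessels, muscle and immune cells. Semaphorins signal through plexins, and most secreted class 3 semaphorins need a neuropilin as coreceptor. Slits bind Robo receptors, netrins bind DCC and UNC5 receptors, and ephrins are membrane-bound ligands of Eph receptors that can also signal back into the cell that carries them. In muscle, terminal Schwann cells cover the neuromuscular junction and extend processes after denervation, and guidance cues are among the signals between such glia, axons, vessels and muscle.

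The IgG library held 97607674 unique molecular identifiers (UMIs) on 23779 barcodes and the SPP1-nAb library 127719916 on 25069. After removal of barcodes with 200 genes or fewer or with at least 10% mitochondrial UMIs, 23385 and 24758 were left, with medians of 3822 and 4756 UMIs. A barcode was placed in a cell class when it held UMIs of at least 3 of the 8 marker genes of that class and of at least 2 more than for any other class. This placed 19127 (81.8%) and 20896 (84.4%) barcodes, and 1364 and 1217 with mixed markers were left out as possible doublets. Of 38 marker genes kept back for a check, 35 and 36 were highest in their own class. *S100b*, *Gfra3*, *Ptprz1* and *Gdnf* were highest in Schwann-like cells in both libraries, while *Dcn*, and in IgG *Col1a1*, both set down for mesenchymal-like cells, were higher in tenocyte-like cells and *Tnc*, set down for tenocyte-like cells, was higher in Schwann-like cells. The libraries shared 163 barcodes. Schwann-like cells numbered 369 and 384, or 1.58% and 1.55% of the barcodes used, against 12673 and 16266 mononuclear phagocyte-like cells. Levels are CPM, the UMIs of a gene in a class divided by the UMIs of all genes in that class and scaled to counts per 1000000. With 1 library per antibody there was no replicate and no test, and all 95% intervals cover counting error only.

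Of the 73 features, 56 had at least 100 UMIs over the gated cells of both libraries and 17 did not. For 43 of the 56, the class with the highest level among the 11 classes with at least 50 cells in each library was the same in both. Among all 15073 features with as many UMIs this held for 62%. The highest class stood a median of 1.98 times (IgG) and 1.99 times (SPP1-nAb) above the next class for the guidance genes, against 1.34 and 1.35 times for all features. Endothelial-like cells were highest for 17 members, Schwann-like cells for 10 and tenocyte-like cells for 4. These and the following counts go by level alone, and some intervals overlapped those of the next class. Mesenchymal-like cells and mononuclear phagocyte-like cells were highest for 3 each, pericyte- or smooth muscle-like cells and mregDC-like cells (mature regulatory dendritic cells, beside the conventional types cDC1 and cDC2) for 2 each, and satellite cell- or myoblast-like cells and neutrophil-like cells for 1 each.

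**Figure D1:**
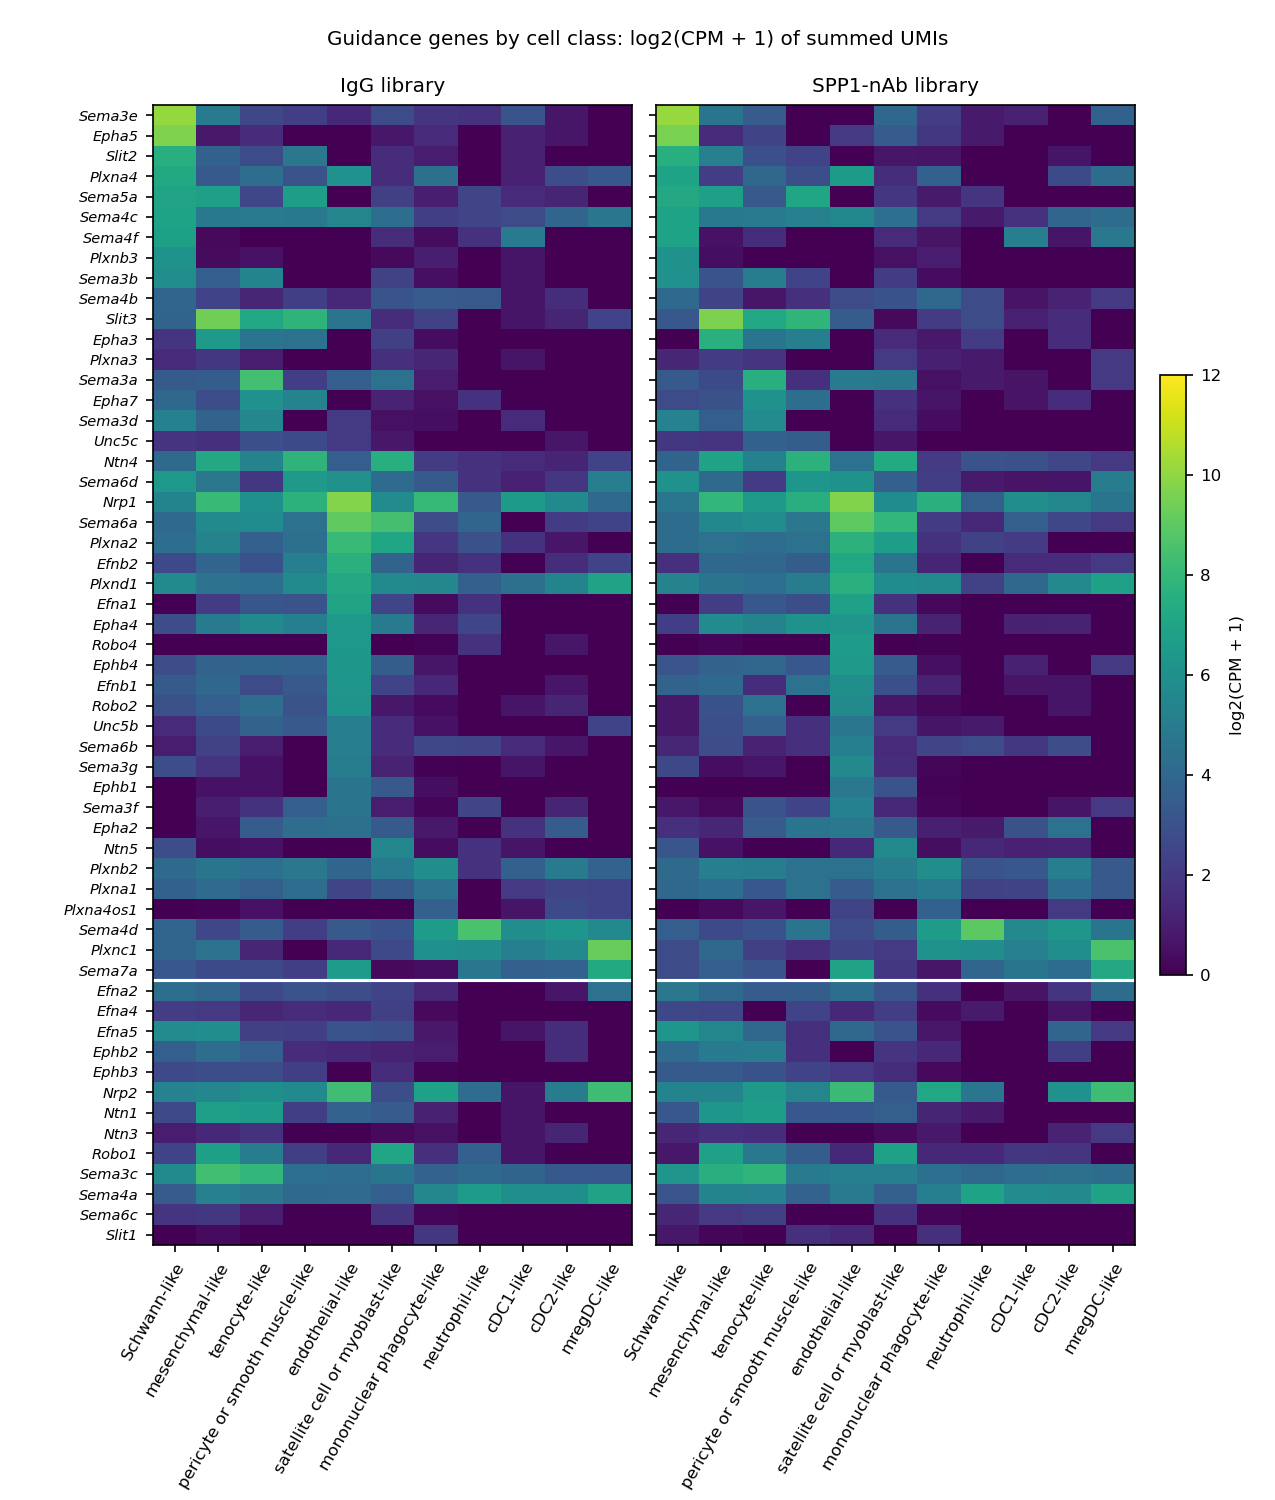
Levels of the 56 guidance genes with at least 100 UMIs, as log2(CPM + 1) of summed UMIs (color), by gene (vertical) and by the 11 cell classes (horizontal), with the IgG library on the left and the SPP1-nAb library on the right. Genes above the white line had the same highest class in both libraries (43 genes), ordered by that class, and the 13 below it did not.

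The 10 members highest in Schwann-like cells were *Sema3b*, *Sema3e*, *Sema4b*, *Sema4c*, *Sema4f*, *Sema5a*, *Slit2*, *Epha5*, *Plxna4* and *Plxnb3*. *Sema3e*, a secreted semaphorin that can bind plexin D1 without a neuropilin, stood at 1107 CPM in the IgG library, with a 95% interval of 1047 to 1170, and at 1119 CPM in the SPP1-nAb library, with an interval of 1064 to 1177. The next class, mesenchymal-like, was at 31.2 and 24.6 CPM. *Epha5*, a receptor of A-type ephrins, was at 827 CPM (776 to 882) and 778 CPM (732 to 826), and no other class passed 9.86 CPM. *Slit2*, a secreted repellent, was at 189 CPM (165 to 216) and 180 CPM (158 to 204), and the next class was pericyte- or smooth muscle-like in IgG (25.7 CPM) and mesenchymal-like in SPP1-nAb (36.0 CPM, against 12.4 CPM in IgG). *Plxnb3*, a receptor known in the oligodendrocyte lineage, was at 67.8 and 69.7 CPM and did not pass 0.998 CPM in any other class. *Sema4f*, a membrane-bound semaphorin, was at 111 and 123 CPM, and cDC1-like cells were next at 31.2 and 34.3 CPM. These 5 genes thus stood in Schwann-like cells at least 3.56 times above every other class in either library.

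Other members of this group were shared more widely. *Sema5a*, a transmembrane semaphorin with thrombospondin repeats, was at 129 CPM (109 to 151) and 149 CPM (129 to 171) in Schwann-like cells. The level in mesenchymal-like cells was 108 CPM (103 to 114) and 109 CPM (102 to 116), and in pericyte- or smooth muscle-like cells 105 CPM (79.2 to 135) and 133 CPM (102 to 170). The intervals of the Schwann-like and pericyte-like values overlapped in both libraries, so their order could not be told. *Plxna4*, a receptor for class 3 and class 6 semaphorins, was at 155 and 124 CPM, above endothelial-like cells at 67.1 and 92.4 CPM, whose interval (70.9 to 118) overlapped that of Schwann-like cells (106 to 144) in SPP1-nAb. *Sema3b* was at 59.1 and 65.3 CPM, with tenocyte-like cells next at 42.3 and 33.2 CPM. *Sema4c* was at 123 CPM in both libraries, with endothelial-like cells next at 43.7 and 47.7 CPM. *Sema4b*, at 13.9 and 16.0 CPM, lay close to mononuclear phagocyte-like cells at 9.80 and 15.1 CPM.

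**Figure D2:**
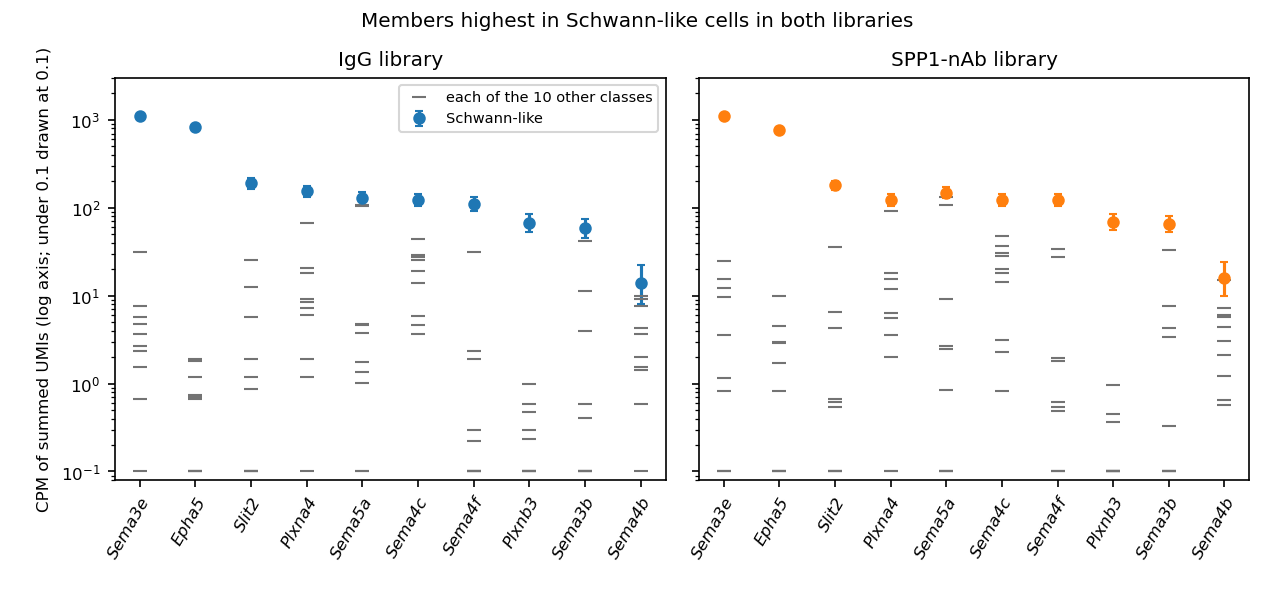
CPM on a log axis of the 10 members highest in Schwann-like cells, with the IgG library on the left and the SPP1-nAb library on the right. Points are Schwann-like cells with 95% Poisson intervals and gray dashes are the 10 other classes. *Sema3e*, *Epha5* and *Plxnb3* stand far above every other class, while *Sema5a* and *Sema4b* do not.

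At an equal depth of 2000 UMIs per Schwann-like cell, 236 of 300 IgG cells carried a *Sema3e* UMI (78.7%, exact interval 73.6 to 83.2), as did 286 of 351 SPP1-nAb cells (81.5%, 77.0 to 85.4). The unthinned shares were 82.9% and 88.5% at medians of 2861 and 3350 UMIs, and 69 and 33 shallower cells were left out. As a background, the thinned shares in mononuclear phagocyte-like cells were 0.209% and 0.331%, at medians of 4155 and 5233 UMIs. Background classes, here and below, were picked in each library for a low level of the gene. The contrast is thus partly set by that choice, and no share is given for the next highest class. An *Epha5* UMI was found in 61.7% (55.9 to 67.2) and 59.3% (53.9 to 64.4) of thinned Schwann-like cells, and in 66.9% and 70.6% without thinning. Its background shares in thinned cells were 0.110% in satellite cell- or myoblast-like cells of the IgG library, at a median of 2490 UMIs, and 0.205% in mesenchymal-like cells of the SPP1-nAb library, at a median of 8009 UMIs. In the SPP1-nAb library satellite cell- or myoblast-like cells were the next highest class for *Epha5*, at 9.86 CPM. Both UMIs were present in 159 of 300 cells (53%) and 175 of 351 cells (49.9%), and neither in 38 and 32.

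The 4 genes with the clearest preference for Schwann-like cells were *Sema3e*, *Slit2*, *Epha5* and *Plxnb3*. On chromosome 5 (GRCm39, GENCODE M39) lie *Sema3e* (ENSMUSG00000063531) at chr5:14075290-14306719, plus strand, *Slit2* (ENSMUSG00000031558) at chr5:48140480-48465075, plus strand, and *Epha5* (ENSMUSG00000029245) at chr5:84202620-84565348, minus strand. Chromosome 5 also holds *Sema3a*, *Sema3c*, *Sema3d* and *Ephb4*, which were highest in other classes. *Plxnb3* (ENSMUSG00000031385) lies at chrX:72800620-72816120, plus strand. The 250 bases before the annotated start of the main transcript are printed for these 4 genes, since they share a highest class, 5′ to 3′ on the strand of the gene. Capitals mark matches on either strand to the core letters of SOX factors (ACAAAG or ACAATG), the TATA box (TATAAA) and the GC box (GGGCGG). The stretches are chr5:14075040-14075289 for *Sema3e*, chr5:84565349-84565598 for *Epha5*, chr5:48140230-48140479 for *Slit2* and chrX:72800370-72800619 for *Plxnb3*.
Sema3e: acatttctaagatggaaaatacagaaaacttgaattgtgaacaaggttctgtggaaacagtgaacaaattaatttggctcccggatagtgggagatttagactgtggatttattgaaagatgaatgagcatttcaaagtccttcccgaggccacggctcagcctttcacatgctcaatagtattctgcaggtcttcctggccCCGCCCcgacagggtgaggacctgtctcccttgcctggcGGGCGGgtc
Epha5: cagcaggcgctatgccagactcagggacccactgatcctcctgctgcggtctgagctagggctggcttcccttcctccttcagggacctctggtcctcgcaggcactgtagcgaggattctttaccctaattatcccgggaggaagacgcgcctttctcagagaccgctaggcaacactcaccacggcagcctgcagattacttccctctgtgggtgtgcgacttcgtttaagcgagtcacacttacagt
Slit2: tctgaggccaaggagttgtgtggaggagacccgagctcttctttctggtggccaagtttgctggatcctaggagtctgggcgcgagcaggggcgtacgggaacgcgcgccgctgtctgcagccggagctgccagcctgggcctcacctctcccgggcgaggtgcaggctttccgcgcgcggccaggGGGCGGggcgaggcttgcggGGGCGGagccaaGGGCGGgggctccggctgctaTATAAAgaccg
Plxnb3: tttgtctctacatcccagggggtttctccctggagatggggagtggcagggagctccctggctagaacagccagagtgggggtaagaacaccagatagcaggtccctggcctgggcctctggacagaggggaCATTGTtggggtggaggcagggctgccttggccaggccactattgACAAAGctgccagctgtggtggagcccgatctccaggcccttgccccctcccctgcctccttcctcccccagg
The *Sema3e* stretch held GGGCGG, or its reverse complement, starting 48 and 9 bases before the start site. The *Slit2* stretch held it 64, 44 and 32 bases before, and TATAAA 11 bases before. The *Plxnb3* stretch held ACAATG on the reverse strand 118 bases before and ACAAAG 73 bases before, and *Epha5* held none of the 4 motifs. Of the 10 members highest in Schwann-like cells, 1 held a SOX core and 7 a GC box in this window. Among 21770 promoters of protein-coding genes, 23.7% held a SOX core of either spelling and 36.3% a GC box, and among the 70 of the guidance genes 61.4% held a GC box. Absence of these letters from 250 bases says nothing about sites elsewhere.

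Endothelial-like cells, 378 in IgG and 308 in SPP1-nAb, were highest for the coreceptor *Nrp1*, for receptors of semaphorins, ephrins and Slits, and for ephrin ligands. *Nrp1*, which also binds vascular endothelial growth factor, was at 885 CPM (814 to 961) and 841 CPM (773 to 913), and mesenchymal-like cells were next at 281 and 243 CPM. *Nrp2* was at 315 and 288 CPM and could not be separated from mregDC-like cells at 310 CPM in both libraries. *Plxnd1*, the receptor of *Sema3e*, was at 148 CPM (120 to 181) and 194 CPM (162 to 230), against 50.4 and 40.6 CPM in the Schwann-like cells that were highest for its ligand. The next class for *Plxnd1* was mregDC-like at 119 CPM (79.1 to 172), whose interval overlapped that of endothelial-like cells, and at 115 CPM (81.6 to 158), where it did not. *Robo4*, an endothelial member of the Robo family, was at 82.7 and 96.9 CPM. It had no UMI in Schwann-like cells, which at a limit of 3 UMIs allows up to 2.61 and 2.18 CPM. *Efna1*, an ephrin induced by inflammation in vessels, was at 128 and 116 CPM and did not pass 8.47 CPM in any other class.

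The ligand *Efnb2*, a mark of arteries, was at 194 and 143 CPM and its receptor *Ephb4*, a mark of veins, at 81.2 and 85.0 CPM. In endothelial-like cells with a UMI of *Gja4*, *Gja5*, *Sox17*, *Hey1* or *Bmx*, known in arteries, *Efnb2* was at 259 CPM (199 to 332) and 167 CPM (119 to 229). It was at 154 CPM (118 to 198) and 130 CPM (98.7 to 169) in those without, so that the intervals were apart in IgG and overlapped in SPP1-nAb. *Ephb4* was at 92.0 and 81.4 CPM against 74.7 and 86.9 CPM, with overlapping intervals in both libraries. *Sema6a*, a transmembrane ligand of A-type plexins, was at 531 and 523 CPM and *Plxna2*, which can bind it, at 275 and 212 CPM. Satellite cell- or myoblast-like cells came second for both genes in both libraries.

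Connective tissue cells were highest for several secreted ligands. *Slit3* (chr11:35011789-35602786, plus strand) was at 674 CPM (660 to 688) and 781 CPM (762 to 801) in mesenchymal-like cells. The next class, pericyte- or smooth muscle-like cells, had 220 and 231 CPM. *Sema3a*, the classical repellent that signals through neuropilin 1, was at 335 CPM (311 to 361) and 180 CPM (160 to 203) in tenocyte-like cells, and no other class passed 29.8 CPM. *Sema3c*, another class 3 ligand, was highest in mesenchymal-like cells in IgG (326 CPM, 317 to 336) and in tenocyte-like cells in SPP1-nAb (232 CPM, 208 to 257). *Ntn1*, the prototype netrin, was at 108 and 78.8 CPM in mesenchymal-like and at 99.4 and 103 CPM in tenocyte-like cells. *Ntn4*, a netrin of basement membranes, was at 220 and 212 CPM in pericyte- or smooth muscle-like cells and at 182 and 163 CPM in satellite cell- or myoblast-like cells, with overlapping intervals.

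The receptors of these ligands lay partly elsewhere. *Robo1*, a receptor of Slits, was at 107 and 114 CPM in mesenchymal-like and 136 and 114 CPM in satellite cell- or myoblast-like cells, and at 4.34 and 0.726 CPM in Schwann-like cells. The netrin receptor *Unc5b* was highest in endothelial-like cells at 34.3 and 25.3 CPM. *Dcc*, the attractive netrin receptor, had 68 UMIs in all gated cells together. Among receptors of ephrins, *Epha3*, at 87.9 and 193 CPM, was highest in mesenchymal-like cells, and *Epha7*, at 66.7 and 70.4 CPM, in tenocyte-like cells.

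Satellite cell- or myoblast-like cells were highest for *Ntn5*, a secreted netrin relative, at 44.9 CPM (38.8 to 51.8) and 51.1 CPM (44.7 to 58.1). Cells with a UMI of *Myog*, the gene of a factor of differentiating muscle cells, numbered 50 and 59, and those with *Pax7*, a stem cell factor, and no *Myog* 1066 and 739. *Ntn4* was at 19.3 CPM (7.75 to 39.7) and 17.1 CPM (9.12 to 29.3) in the first set and at 199 CPM (184 to 215) and 187 CPM (173 to 202) in the second. *Sema6a* was at 182 and 155 CPM against 373 and 261 CPM, and *Ntn5* at 13.8 and 10.5 CPM against 48.5 and 58.4 CPM. All 3 genes were lower in the cells with *Myog*, with intervals apart in both libraries.

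Immune classes were highest for other members. *Sema4d*, an immune semaphorin that binds B-type plexins, was highest in neutrophil-like cells at 374 CPM (318 to 436) and 502 CPM (463 to 543), with mononuclear phagocyte-like cells next at 94.6 and 93.9 CPM. Its receptor *Plxnb2* was highest in the latter at 59.3 and 60.1 CPM. In mregDC-like cells, of which there were 51 and 59, *Sema7a* was at 153 and 152 CPM and its receptor *Plxnc1* at 600 and 379 CPM. Endothelial-like cells came next for *Sema7a*, at 95.2 and 118 CPM, and mregDC-like cells stood 1.61 and 1.29 times above them. The intervals of both classes overlapped in each library (107 to 212 against 72.8 to 122, and 113 to 200 against 93.2 to 147). No interval was computed for the ratio between the classes. Next for *Plxnc1* were mononuclear phagocyte-like cells, at 63.8 and 68.3 CPM. *Plxna4os1*, an antisense RNA of *Plxna4*, was at 11.6 and 12.4 CPM in mononuclear phagocyte-like cells, and whether strand was used in counting is not stated, so that its reads and those of *Plxna4* may not be separate.

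The 17 members under 100 UMIs ranged from 0 UMIs for *Epha8* to 97 for *Sema4g*, and the lowest member above the limit was *Unc5c* with 114. They were *Sema4g*, *Sema5b*, *Plxnb1*, *Plxna4os2*, *Plxna4os3*, *Efna3*, *Efnb3*, *Epha1*, *Epha6*, *Epha8*, *Epha10*, *Ephb6*, *Robo3*, *Unc5a*, *Unc5d*, *Unc5cl* and *Dcc*. The 13 members above the limit whose highest class differed between the libraries were *Efna2*, *Efna4*, *Efna5*, *Ephb2*, *Ephb3*, *Nrp2*, *Ntn1*, *Ntn3*, *Robo1*, *Sema3c*, *Sema4a*, *Sema6c* and *Slit1*. In the library where the gap was wider the highest class stood 1.02 to 9.45 times above the next. The intervals of *Sema3c* in mesenchymal-like and tenocyte-like cells were apart in both libraries. For *Slit1* the highest class in SPP1-nAb, pericyte- or smooth muscle-like cells at 2.14 CPM, rested on 1 UMI.

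The libraries were then compared within each class, for members with at least 100 UMIs over both libraries. Over the 11 classes this gave 150 pairs of member and class, of which 26 were past 1.5-fold in either direction, beside 9.61% of the pairs of any feature and class. In Schwann-like cells this held for 0 of 14 members, beside 3.35% of all features tested there. Their log2 ratios of SPP1-nAb over IgG ran from -0.32 for *Plxna4* to 0.55 for *Sema3c*. *Sema3e* had a log2 ratio of 0.02 (95% interval -0.09 to 0.12), *Epha5* of -0.09 (-0.22 to 0.04), *Slit2* of -0.07 (-0.34 to 0.20) and *Sema5a* of 0.21 (-0.10 to 0.53). The intervals lay wholly within 1.5-fold for 7 of the 14, these 4 with *Sema4c*, *Sema4f* and *Plxnb3*. Those of *Efna5* (0.54, 0.08 to 1.02) and *Sema3c* (0.55, 0.08 to 1.03) reached past it. The median size of the log2 ratio was 0.15 for the members and 0.15 for all features.

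In mesenchymal-like cells, 12 of 38 members were past 1.5-fold, 6 higher and 6 lower in SPP1-nAb, beside 12.2% of all features in either direction, 5.37% higher and 6.84% lower. The median size of the log2 ratio was 0.34 for the members and 0.20 for all features. *Epha4* was at 29.9 and 54.3 CPM, *Ephb2* at 18.7 and 28.7 CPM, *Sema7a* at 5.48 and 11.0 CPM, *Plxna2* at 40.2 and 21.1 CPM and *Sema6d* at 26.1 and 16.5 CPM, and the intervals of the libraries were apart for each of these. Higher were the Eph receptors *Epha3* (log2 ratio 1.13, 1.02 to 1.24), *Epha4* (0.86, 0.66 to 1.06), *Ephb2* (0.62, 0.36 to 0.88) and *Ephb3* (0.64, 0.18 to 1.11), *Slit2* (1.53, 1.25 to 1.81) and *Sema7a* (1.00, 0.54 to 1.46). Lower were the ligands *Sema3a* (-0.94, -1.45 to -0.44), *Sema3c* (-0.81, -0.90 to -0.73) and *Sema6d* (-0.66, -0.96 to -0.37) and the receptors *Plxna2* (-0.93, -1.19 to -0.68), *Plxna4* (-1.35, -1.99 to -0.76) and *Robo2* (-0.67, -1.14 to -0.22). The Eph receptors *Epha7* (0.15) and *Ephb4* (-0.04) were not past the limit. Among cells thinned to 2000 UMIs, the share with an *Epha3* UMI was 9.63% (8.46 to 10.9) and 23.6% (21.0 to 26.4). The unthinned shares were 16.8% and 47.6% at medians of 5021 and 8009 UMIs, and in Schwann-like cells of the SPP1-nAb library the thinned share was 0 of 351. Some ratios rested on few cells, with 39.9% and 40.1% of the *Slit2* UMIs in 10 cells of each library, and with 86.2% of the 29 *Plxna4* UMIs in 10 SPP1-nAb cells. In that library 10 cells also held 59.6% of the 57 *Robo2* UMIs and 46.7% of the 45 *Sema3a* UMIs. *Ephb2* (0.55) and *Ephb3* (0.37) fell inside the limit when cells were thinned to 2000 UMIs, and *Robo2* (-0.48) when barcodes with mixed markers were kept.

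The mesenchymal-like cells also differed in makeup and number. They numbered 2467 in IgG and 1015 in SPP1-nAb. Cells with a UMI of *Pi16*, known in adventitial fibroblasts, and none of *Smoc2* made up 16.1% and 8.87% of them, and cells with *Smoc2* and no *Pi16* 52.9% and 53.4%. *Sema3c* was at 1103 CPM (1058 to 1149) and 1017 CPM (943 to 1096) in the *Pi16* cells and at 94.2 CPM (87.2 to 102) and 62.3 CPM (54.9 to 70.4) in the *Smoc2* cells. Its log2 ratio was -0.12 (-0.24 to 0.01) within the *Pi16* cells and -0.60 (-0.81 to -0.39) within the *Smoc2* cells, so that in the former it was no longer past 1.5-fold. *Efna5*, at 211 and 217 CPM, and *Sema3e*, at 135 and 213 CPM, were also higher in the *Pi16* cells than in the *Smoc2* cells, which had 19.3 and 20.5 CPM and 3.44 and 6.35 CPM. *Sema5a* was at 14.6 and 7.34 CPM in the *Pi16* and at 153 and 132 CPM in the *Smoc2* cells. *Epha3* was higher in SPP1-nAb in both sets, by log2 ratios of 0.95 (0.35 to 1.54) and 1.20 (1.05 to 1.35). Within the *Smoc2* cells, *Epha4* had a log2 ratio of 0.62 (0.37 to 0.86), and *Ephb2* (0.19, -0.17 to 0.56), *Ephb3* (0.49, -0.13 to 1.11) and *Robo2* (-0.53, -1.03 to -0.04) were no longer past 1.5-fold. *Slit2* (1.41, 1.05 to 1.78), *Sema7a* (0.97, 0.42 to 1.52) and *Sema6d* (-0.79, -1.20 to -0.41) stayed past it in the *Smoc2* cells. So did *Plxna2* (-1.04, -1.38 to -0.72) and *Plxna4* (-1.17, -1.96 to -0.45, on 77 and 20 UMIs). *Sema3a* was at 25.3 and 4.40 CPM in the *Pi16* cells, on 52 and 3 UMIs, and its log2 ratio was 0.14 (-0.59 to 0.84) in the *Smoc2* cells. The part of this makeup in the ratios of the whole class was not tested beyond these values.

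**Figure D3:**
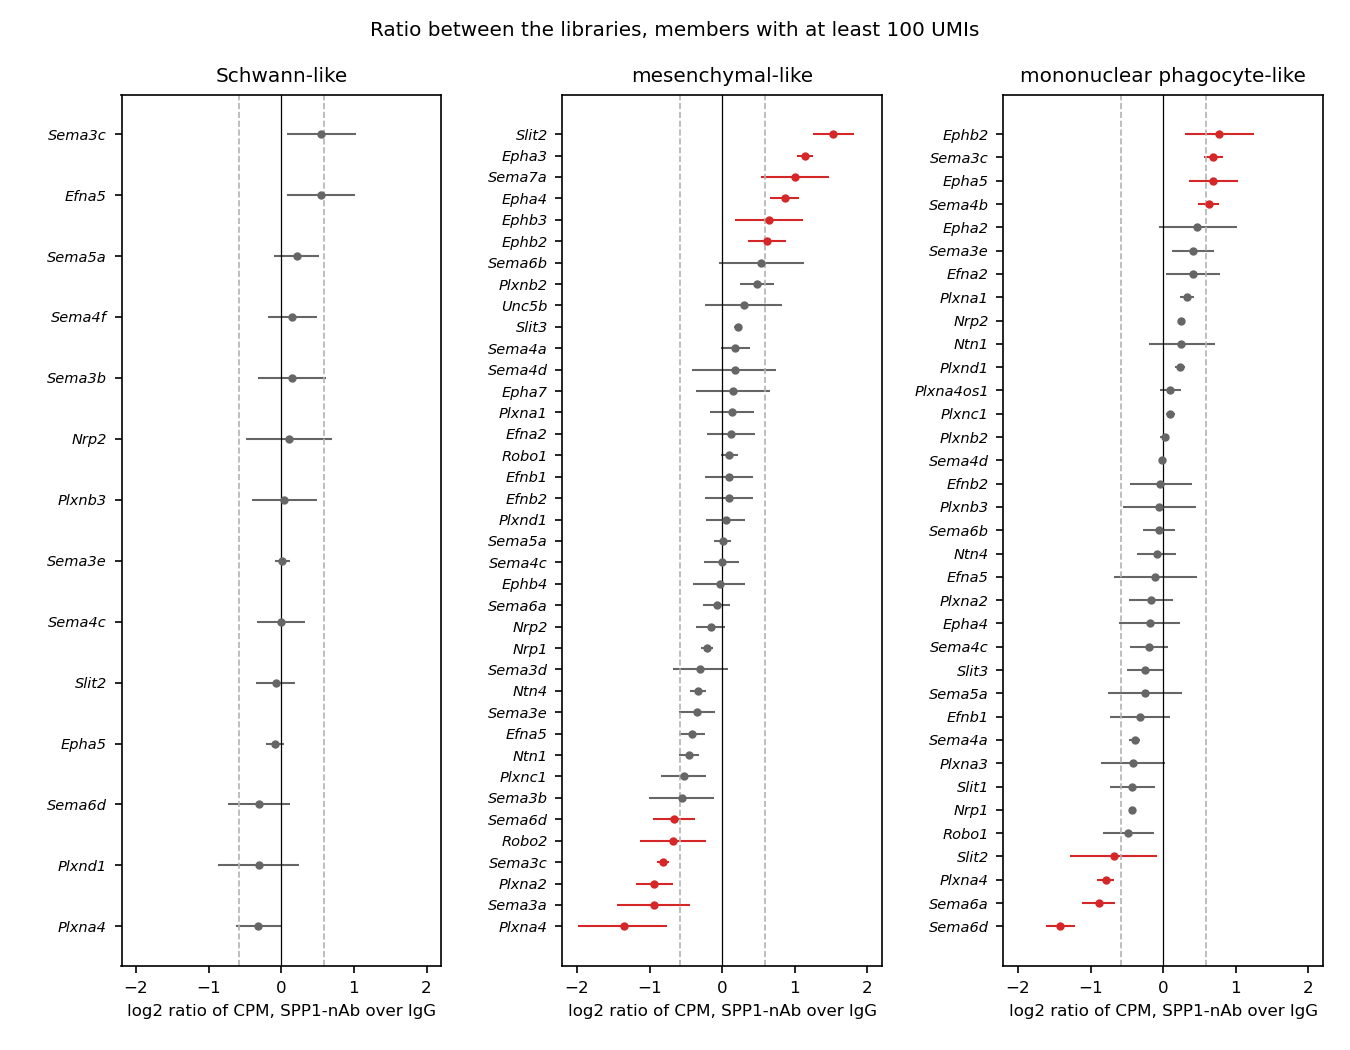
Log2 ratio of CPM, SPP1-nAb over IgG (horizontal), for each member with at least 100 UMIs (vertical) in Schwann-like, mesenchymal-like and mononuclear phagocyte-like cells. Bars are exact 95% intervals for counting error, dashed lines mark 1.5-fold and red points lie past it, 0 of 14, 12 of 38 and 8 of 35.

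For the other non-immune classes, the number of members past 1.5-fold was set beside the share of all features in that class. In tenocyte-like cells it was 1 of 15 (6.88% of all features), *Sema3a*, with a log2 ratio of -0.89 (-1.10 to -0.69). A *Sema3a* UMI was found in 31.1% (26.9 to 35.5) and 24.8% (20.1 to 29.9) of tenocyte-like cells thinned to 2000 UMIs, against 0.108% and 0.0701% of mononuclear phagocyte-like cells. In pericyte- or smooth muscle-like cells it was 0 of 4 members (6.98%) and in endothelial-like cells 0 of 12 (7.57%), where the ratios ran from -0.44 for *Efnb2* to 0.46 for *Plxna4*. In satellite cell- or myoblast-like cells it was 2 of 16 (10.3%), *Plxna1* at 9.69 and 21.3 CPM with a log2 ratio of 1.13 (0.59 to 1.70) and *Efnb2* at 13.2 and 23.7 CPM with 0.84 (0.36 to 1.34). The first was 0.15 when cells were thinned to 2000 UMIs, and the second 0.27 when 4 gate genes were asked for. *Sema6a* had -0.53 (-0.64 to -0.42) there, just inside the limit. The cells with *Myog*, in which *Plxna1* was at 41.3 and 65.9 CPM against 5.76 and 12.6 CPM in those with *Pax7* and no *Myog*, made up 3.80% and 6.42% of the class.

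In mononuclear phagocyte-like cells, 8 of 35 members were past 1.5-fold, 4 higher and 4 lower, beside 11.8% of all features, 2.74% higher and 9.1% lower. *Nrp1*, at 260 CPM (256 to 264) and 192 CPM (189 to 195), had a log2 ratio of -0.44 and *Nrp2*, at 117 and 140 CPM, of 0.25, and neither was past the limit. *Sema3c* was at 12.5 and 20.2 CPM, *Ephb2* at 0.928 and 1.58 CPM, *Sema6d* at 9.54 and 3.58 CPM, *Sema6a* at 6.18 and 3.34 CPM and *Plxna4* at 20.9 and 12.1 CPM. Higher in SPP1-nAb were *Sema3c* (0.69, 0.56 to 0.82), *Sema4b* (0.63, 0.48 to 0.77), *Ephb2* (0.77, 0.31 to 1.25) and *Epha5* (0.69, 0.35 to 1.03). Lower were *Sema6d* (-1.42, -1.62 to -1.22), *Sema6a* (-0.89, -1.11 to -0.66), *Plxna4* (-0.79, -0.91 to -0.67) and *Slit2* (-0.68, -1.28 to -0.09). *Epha5* and *Slit2*, both highest in Schwann-like cells, were here at 1.79 and 2.88 CPM and at 0.875 and 0.545 CPM. Of their UMIs, 70.6% and 57.2% (*Epha5*) and 80.0% and 72.0% (*Slit2*) lay in 10 cells of each library. The log2 ratio was 0.21 for *Epha5* in thinned cells and -0.042 for *Slit2*, 0.41 for *Ephb2* and 0.52 for *Sema3c* when barcodes with mixed markers were kept, all inside the limit. The estimated share of free RNA in this class was 6.91% and 9.76%. With it subtracted, *Epha5* had a log2 ratio of 0.97 and *Sema3c* of 1.12, both past the limit.

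Sets of phagocytes within this class carried different members. Resident macrophage-like cells made up 21.9% of the class in IgG and 10.1% in SPP1-nAb, Spp1+ phagocytic-like cells 14.8% and 31.5%, and monocyte-like cells 12.1% and 11.3%. Of the 3 sets, resident macrophage-like cells were highest for *Nrp1* (433 and 328 CPM), *Nrp2* (216 and 311 CPM), *Plxna4* (55.8 and 47.6 CPM) and *Sema6d* (31.2 and 17.1 CPM). The Spp1+ phagocytic-like cells had 4.75 and 4.08 CPM of *Plxna4* and 1.85 and 1.05 CPM of *Sema6d*, and were highest for *Plxnc1* (92.1 and 88.0 CPM) and *Plxna1* (44.0 and 42.2 CPM). Monocyte-like cells were highest for *Sema4d* (192 and 160 CPM), with resident macrophage-like cells at 22.0 and 32.1 CPM. Within the resident macrophage-like cells the log2 ratio of *Plxna4* was -0.23 (-0.41 to -0.04) and no longer past 1.5-fold. That of *Sema6d* was -0.87 (-1.17 to -0.58), and *Sema3c* was higher in SPP1-nAb in all 3 sets, by 0.95 in monocyte-like, 0.91 in resident macrophage-like and 0.80 in Spp1+ phagocytic-like cells. *Sema4b* had a log2 ratio of -0.011 within the resident macrophage-like, 0.61 within the monocyte-like and 0.47 within the Spp1+ phagocytic-like cells. *Sema6a*, at 15.2 and 7.29 CPM in resident macrophage-like cells, had -1.06 (-1.52 to -0.63) there. In Spp1+ phagocytic-like cells it was at 3.34 and 3.00 CPM, with -0.15 (-0.70 to 0.42), inside the limit.

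Neutrophil-like cells had 0 of 2 members past the limit (13.4% of all features), and *Sema4d* had a log2 ratio of 0.42 (0.17 to 0.68). The estimated share of free RNA in this class was 4.23% and 21.1%. In the dendritic classes, *Nrp1*, at 91.9 and 60.0 CPM, was lower in cDC1-like cells (-0.61, -0.98 to -0.25, 1 of 5 members, 6.6% of all features). *Nrp2* was higher in cDC2-like cells (1.03, 0.53 to 1.54, 1 of 7 members, 7.38%), at 32.9 and 67.1 CPM. *Plxnc1* was lower in mregDC-like cells (-0.66, -1.02 to -0.30, 1 of 2 members, 12%). Of its UMIs there, 46.8% and 43.2% lay in 10 cells. The log2 ratio was -0.44 for *Plxnc1* with mixed barcodes kept, and -0.11 for *Nrp1* and 0.36 for *Nrp2* in thinned cells, all inside the limit.

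Within the Schwann-like class, cells were also set apart by a UMI of *Reln*, a secreted glycoprotein that steers neurons, present in 165 of 369 and 195 of 384 cells. *Sema5a* was at 212 CPM (176 to 254) and 272 CPM (235 to 313) in cells with *Reln* and at 46.5 CPM (30.6 to 67.7) and 19.4 CPM (10.3 to 33.1) in those without. Its log2 ratio of SPP1-nAb over IgG was 0.36 (0.02 to 0.70) in cells with *Reln*. In those without it was -1.26 (-2.34 to -0.26), on 27 and 13 UMIs. *Slit2* was at 268 and 256 CPM against 112 and 99.8 CPM, and *Epha5* at 1042 and 1014 CPM against 617 and 530 CPM. *Sema3d*, another class 3 ligand, lay the other way, at 5.26 CPM (1.09 to 15.4) and 2.83 CPM (0.343 to 10.2) against 68.9 CPM (49.2 to 93.8) and 77.5 CPM (57.9 to 102). The intervals of the sets were apart for these 4 genes in both libraries. *Sema3e* was at 1126 and 1165 CPM against 1088 and 1071 CPM, and the intervals overlapped. Median depth was 3163 and 3366 UMIs in the cells with *Reln* and 2790 and 3344 in those without.

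**Figure D4:**
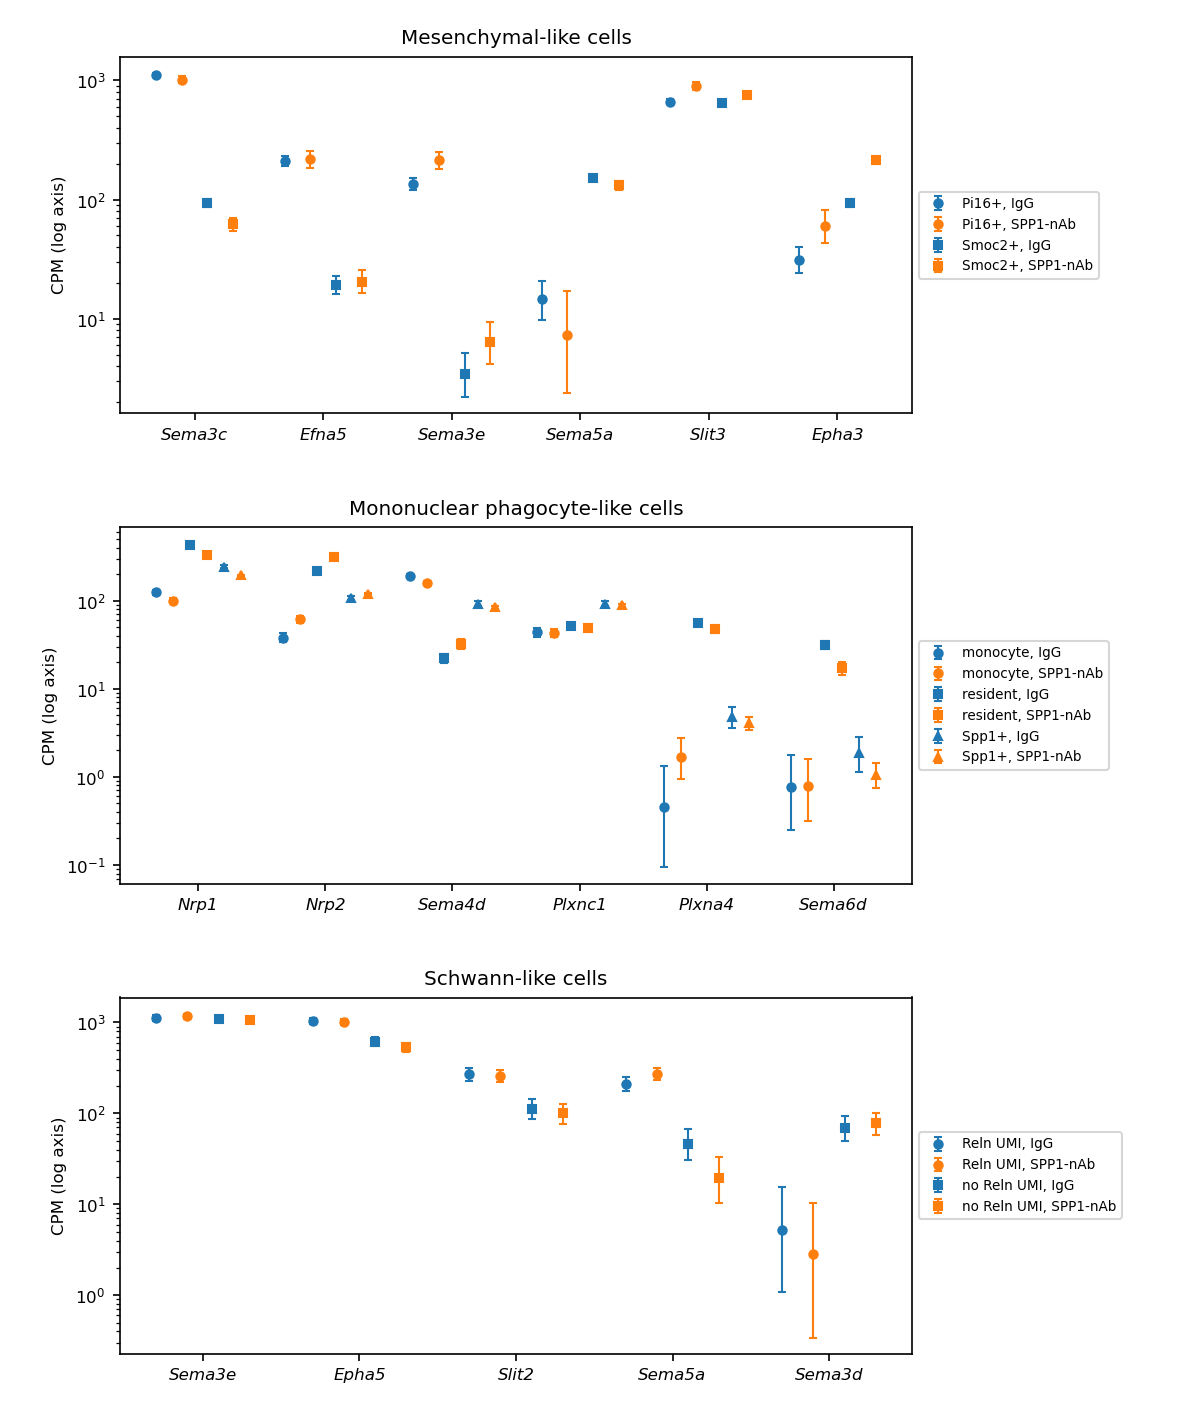
CPM on a log axis with 95% Poisson intervals of selected members in sets of cells within mesenchymal-like, mononuclear phagocyte-like and Schwann-like cells (symbols), in IgG (blue) and SPP1-nAb (orange). *Sema3c* in *Pi16* cells stood near 1000 CPM in both libraries, and *Plxna4* and *Sema6d* were highest in resident macrophage-like cells.

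Of 36 further genes of these pathways, 0 of the 19 with enough UMIs in Schwann-like cells were past 1.5-fold, beside 3.35% of all features there. In mesenchymal-like cells 3 of 32 were higher and 4 lower, beside 5.37% and 6.84% of all features. Higher were *Mical2* (log2 ratio 1.01), a redox enzyme acting on actin, the actin regulator *Enah* (0.61) and *Flrt2* (0.60), a ligand of UNC5 receptors. Lower were *Dpysl2* (-0.61), a mediator of semaphorin 3A signals, *Mical1* (-0.90), *Met* (-1.09) and *Ablim1* (-0.81). *Dpysl2* was also lower past the limit in tenocyte-like (-0.73), pericyte- or smooth muscle-like (-1.01), endothelial-like (-0.92) and satellite cell- or myoblast-like cells (-0.63). In tenocyte-like cells 3 of 21 were higher and 1 lower, beside 6.88% of all features in either direction. Higher were *Flrt2* at 25.5 and 96.4 CPM (1.92, 1.46 to 2.40), the kinase gene *Abl2* (0.69) and the netrin receptor gene *Neo1* (0.65). *Mical2* was higher past the limit in pericyte- or smooth muscle-like (0.74) and satellite cell- or myoblast-like cells (1.02), and *Srgap1* (0.63) in the latter. Of the genes with enough UMIs, 1 of 4 was higher and 1 lower in pericyte- or smooth muscle-like cells (6.98% of all features in either direction). The counts were 0 and 1 of 13 in endothelial-like cells (7.57%) and 2 and 1 of 25 in satellite cell- or myoblast-like cells (10.3%). In mononuclear phagocyte-like cells 1 of 31 was higher, *Flrt3* (0.89), beside 2.74% of all features, and 2 were lower, beside 9.1%, *Dpysl3* (-1.16) and *Srgap2* (-0.76), an effector of Robo receptors. *Flrt3* was also higher in cDC2-like cells (0.92, 1 of 13 genes, beside 7.38% of all features in either direction). It was higher in mregDC-like cells too (0.59, 1 of 3, beside 12%), with an interval that reached 0 (-0.0050 to 1.22). *Adam10* was lower in cDC1-like cells (-0.83, 1 of 12, beside 6.6%).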

How the data were processed

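The authors deposited 1 matrix of UMI counts per library, without normalization, as Cell Ranger wrote it after its own choice of barcodes. The submitters' notes name version 8.0.0 and GRCm39, and the file headers name version 9.0.1. Ambient RNA removal, doublet removal and integration in the study came later and are not in these counts. Barcodes were filtered and gated by marker genes, and UMIs were summed per gene, class and library and scaled to CPM. A member was called past the limit at 1.5-fold with at least 100 UMIs in the class. Intervals were exact Poisson (levels), Clopper-Pearson (shares) and conditional binomial (ratios). Members past it whose interval excludes a ratio of 1 are named. Thinning drew 2000 UMIs per cell. Identifiers of 31674 of 32287 features, and of all 73 members, were in GENCODE M39. Members and lists were chosen with earlier results of these data known, and the thresholds of the gate and the sets within classes were chosen after the data were seen. Steps were tested on simulated data with Python 3.11.15, numpy 2.4.6 and scipy 1.17.1. Classes with fewer than 50 cells in a library were not compared. Alternatives covered filters, gates, scaling, free RNA, thinning and deep cells.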

Additional observations from a re-analysis of the deposited data

Results flagged for a closer look

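For 2 members the ratio between the libraries was past 1.5-fold in opposite directions in 2 classes. *Sema3c* was lower in SPP1-nAb in mesenchymal-like cells (log2 ratio -0.81) and higher in mononuclear phagocyte-like cells (0.69). Within *Pi16* cells, however, *Sema3c* had a log2 ratio of -0.12, and in mononuclear phagocyte-like cells 0.52 with mixed barcodes kept. Within *Smoc2* cells its log2 ratio was -0.60. In the sets of phagocytes it was 0.95 (monocyte-like), 0.91 (resident macrophage-like) and 0.80 (Spp1+ phagocytic-like). *Slit2* was higher in mesenchymal-like cells (1.53) and lower in mononuclear phagocyte-like cells (-0.68), where it had 50 UMIs in each library. Of these UMIs, 80.0% and 72.0% lay in 10 cells, and the log2 ratio was -0.042 with mixed barcodes kept. With 1 library per antibody neither difference between classes was tested.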

How the results depend on the processing

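Of 150 pairs of member and class, 26 were past 1.5-fold. This became 195 of 469 pairs with no minimum of UMIs, 45 of 203 with 50 UMIs and 17 of 96 with 200 UMIs. The share of all pairs of feature and class went from 9.61% to 31.7%, 12.8% and 7.77%. In mesenchymal-like cells 12 of 38 became 28 of 66 with no minimum (31.6% of all features), and in mononuclear phagocyte-like cells 8 of 35 became 31 of 70 with no minimum (29%) and 14 of 47 with 50 UMIs (14.7%). In Schwann-like cells 0 of 14 became 1 of 17 with 50 UMIs (7.25% of all features) and 17 of 54 with no minimum (28.3%). The count was 1 with 1 gate gene more or with the 5% deepest cells left out, and 2 with cells thinned to 2000 UMIs. No share of all features is given for these last settings, so their counts cannot be set against a general rate. The share of Schwann-like cells with a *Sema3e* UMI was 59.3% (IgG) and 60.1% (SPP1-nAb) at 1000 UMIs and 88.5% without thinning in SPP1-nAb. In sets of cells, an alternative chosen after seeing the data, the sign turned for *Sema3a* within *Smoc2* cells (0.14) and for *Sema4b* within resident macrophage-like cells (-0.011). It also turned in some sets with fewer UMIs. In resident macrophage-like cells these were *Epha5* (-0.99, on 29 and 10 UMIs) and *Slit2* (1.42, on 6 and 11 UMIs). In *Pi16* cells they included *Sema6d* (0.11, on 28 and 10 UMIs) and *Epha4* (-0.73, on 5 and 1 UMIs). Of the 26 ratios, 14 stayed past 1.5-fold under every planned setting of filters, gates, scaling, free RNA and thinning, and 12 fell inside it under at least 1, most often with thinned cells or mixed barcodes kept. The cause was not tested. The sets of cells were not among these settings, and some of the 14 fell inside 1.5-fold within a set. These included *Plxna4* (-0.23) in resident macrophage-like cells, *Sema6a* (-0.15) in Spp1+ phagocytic-like cells and *Sema3c* (-0.12) in *Pi16* cells. *Epha3* stayed past it in both mesenchymal-like sets (0.95 and 1.20). With free RNA subtracted, *Slit2* in mononuclear phagocyte-like cells gave no value. No paired analysis was possible because each group had 1 library. That number limits every comparison between the antibodies, and few UMIs limit the small classes.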
